A study of Mus musculus with 12 samples.

Results

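Genes of the integrated stress response were followed through iron chelation and loss of the ferritinophagy receptor NCOA4 in HT22 cells, an immortalised mouse hippocampal neuronal line. They are the transcription factor genes Atf4, Ddit3, Atf3, Cebpb and Nupr1, the feedback genes Trib3 and Ppp1r15a, and the target genes Chac1, Asns and Sesn2. They were taken by name, and all 10 were found among the 24343 genes kept in the expression tables. Total RNA was sequenced from 12 libraries in 4 groups of 3. The siControl group carried a control siRNA, the siNCOA4 group carried an siRNA against Ncoa4, and the siControl+DFO and siNCOA4+DFO groups received the same siRNAs and then the iron chelator deferoxamine (DFO) at 100 µM for 24 h. Every group was therefore transfected, and an untransfected culture was not analysed here. All 12 libraries came from the same line, and the labels call the 3 replicates of each group biological.

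The integrated stress response is a shared answer to several stresses, including amino acid shortage, unfolded protein in the endoplasmic reticulum, viral RNA and mitochondrial or haem stress. Each is sensed by a kinase that phosphorylates the initiation factor eIF2α, which slows general translation while allowing translation of the Atf4 mRNA through its upstream reading frames. ATF4 pairs with C/EBP proteins on composite C/EBP-ATF sites and switches on genes for amino acid synthesis and transport, redox balance and cell fate. Some of those products act back on the pathway: PPP1R15A (GADD34) brings protein phosphatase 1 to eIF2α and so restores translation, and TRIB3 binds ATF4 and limits its activity.

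The promoters of the 10 genes were searched for the C/EBP-ATF response element, spelled TGATGNAA with N for any base, and for the cAMP response element, spelled TGACGTCA, on both strands. The windows covered 250 bases before and 50 after each RefSeq start (GRCm38.p6), and all 10 genes had one. The C/EBP-ATF letters were present in 5 of the 10 windows and in 3.969% of all 32851 promoters of the same length. The cAMP response element was present in 1, that of Ppp1r15a, and in 1.79% of all promoters. The 6 matches are shown because ATF4 and its relatives are known to bind elements of this kind and the match is a sequence feature that several of these genes share, with the matching letters in capitals and each window written along the strand of its gene.
Atf3: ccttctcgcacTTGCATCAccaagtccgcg
Nupr1: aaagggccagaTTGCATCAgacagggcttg
Trib3: ttagctcaggtTTACATCAgccgggcgggg
Chac1: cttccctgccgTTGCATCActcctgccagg
Asns: tcccagccacaTGATGAAActtcccgcacg
Ppp1r15a: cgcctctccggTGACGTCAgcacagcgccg
The capitals of Atf3, Nupr1, Trib3 and Chac1 are the reverse complement of the motif and those of Asns its forward form, whereas the Ppp1r15a element reads the same on both strands. The windows lie at chr1:191183425-191183454 (Atf3), chr7:126625562-126625591 (Nupr1), chr2:152344028-152344057 (Trib3), chr2:119351038-119351067 (Chac1), chr6:7693214-7693243 (Asns) and chr7:45526262-45526291 (Ppp1r15a). Counted from the RefSeq start, the first capital lies at -110 in Atf3 and Nupr1, -193 in Chac1, -23 in Asns, -12 in Ppp1r15a and 14 in Trib3. For Asns and Sesn2 no GENCODE transcript start was found near the RefSeq start. The Asns window lies inside the GENCODE gene, which begins at 7693254 on the minus strand, so -23 holds for the RefSeq start only. The windows of Atf3 and Nupr1 also lie inside their GENCODE genes, which begin at 191218039 and 126630861 on the minus strand. For these a GENCODE transcript start was found near the RefSeq start, and -110 is counted from that RefSeq start. No match was found in the windows of Atf4, Ddit3, Cebpb and Sesn2, which says only that these letters are not there.

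The values are FPKM, fragments per unit of transcript length and of mapped fragments, so levels can be compared between genes per unit length. Relative depth, recovered from the size of the step that a single read makes in the FPKM of low genes, ranged from 0.928 to 1.41 with siControl replicate 1 set at 1. The shallowest library was siNCOA4+DFO replicate 3. Ncoa4 itself was at 6.02 to 6.46 FPKM in siControl and 0.770 to 0.952 in siNCOA4 libraries, and at 7.52 to 8.70 and 0.850 to 1.57 with DFO. Of 12 neuronal markers, 3 (Tubb3, Eno2 and Syn1) reached a mean of 0.5 FPKM in any group, and Rbfox3, Snap25 and Map2 stayed below it. Protein-coding genes took 46.86 to 50.05% of the FPKM sum in siControl+DFO and 41.04 to 44.93% in siNCOA4+DFO libraries. A value of 0 is given as listed at 0, because Gapdh, which cells use throughout, was itself listed as low as 0.364 FPKM.

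Iron chelation raised 9 of these genes in siControl cells, and the other, Atf3, was detected with DFO alone. Changes are log2 fold changes of FPKM + 0.1 from limma with their standard error (SE), and a gene passed the test at a Benjamini-Hochberg adjusted p below 0.05 over the 11924 genes tested. All 10 members passed the filter on low values, Atf3 through its DFO libraries alone, so it is left out of the counts against groups without DFO. By that rule 9 of 9 members were higher, against 27.7% of all genes tested, and the siControl+DFO libraries of these 9 did not overlap their siControl libraries, as held in the same direction for 31.1% of all genes. With a change above 2-fold required as well, 8 of 9 were higher, against 11.1% of all genes. The median change of the 9 was 1.99, compared with -0.01 over all genes. Some markers of neurons and of astrocytes also moved with DFO. The summed FPKM of 12 neuronal markers was 17.3 to 19.1 in siControl and 38.3 to 41.4 in siControl+DFO libraries. That rise came from Eno2 (means of 4.63 and 21.7 FPKM) and Tubb3 (7.77 and 12.5), while Syn1 did not rise (5.52 and 5.32). The sum of 5 astrocyte markers was 36.4 to 46.0 and 3.18 to 5.42, mostly Slc1a3 (means of 42.1 and 3.59). Aldh1l1 (0.324 and 0.678) and Gfap (0 and 0.199) did not fall. The part of these in the result was not tested. In bulk RNA a lower or higher level cannot be told apart from fewer or more cells carrying the transcript.

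**Figure D1:**
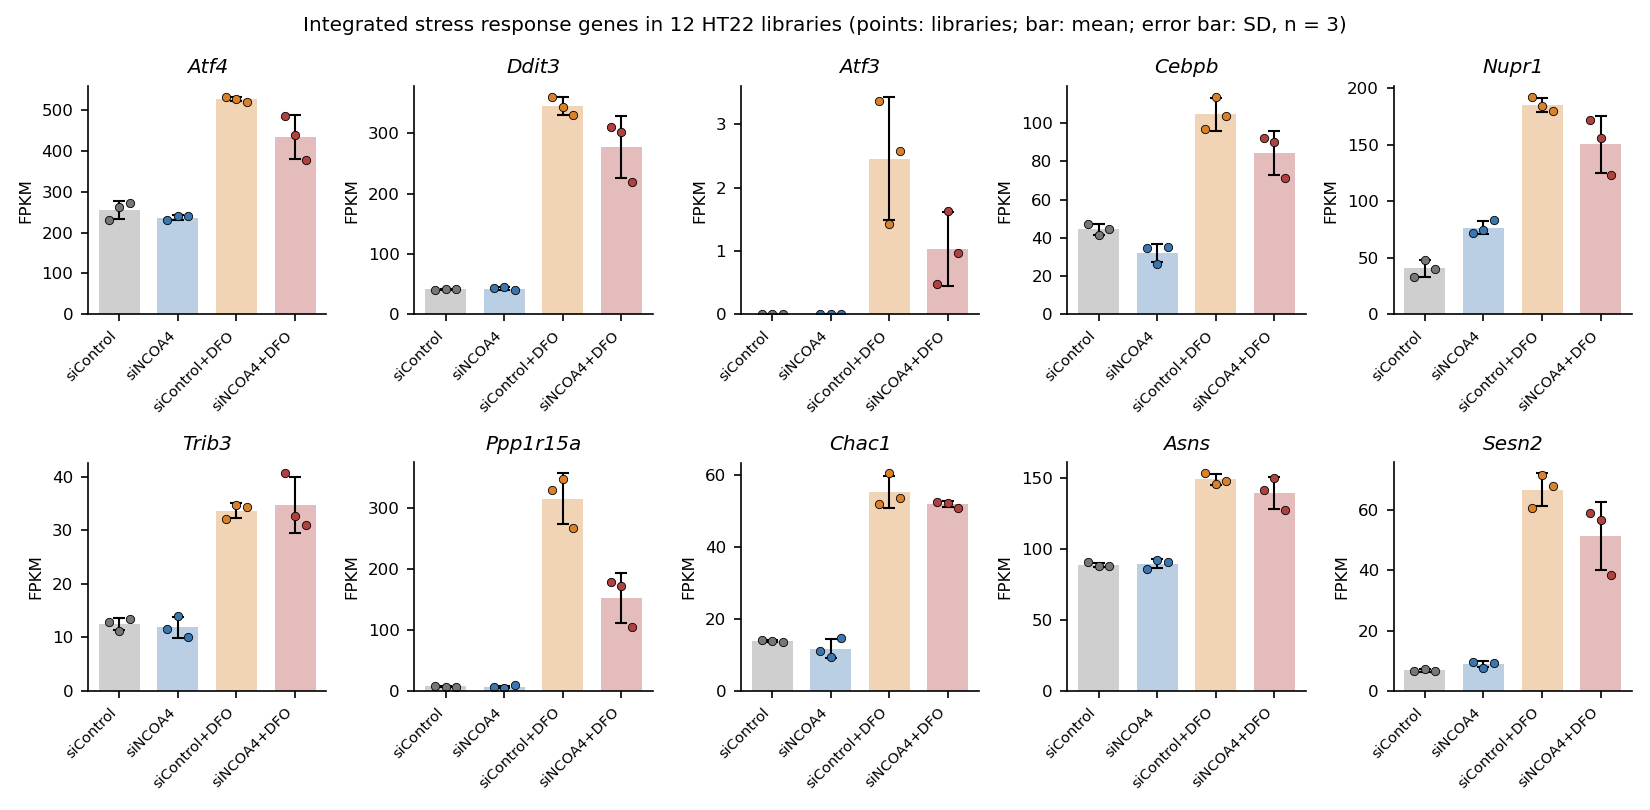
FPKM of each of the 10 genes (vertical axis, from 0, with its own scale in each panel) in the 4 groups; points are libraries, bars are group means and error bars are SD (n = 3). The DFO groups stand above the groups without DFO in every panel, and the siNCOA4+DFO bar of Ppp1r15a, at 152 FPKM, is about 48.2% of the siControl+DFO bar, at 315 FPKM.

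Among the transcription factors, Atf4 (chr15:80255184-80257541, plus strand), the central activator of the pathway, was the most abundant member before treatment. It stood at 231, 264 and 272 FPKM in siControl and at 532, 527 and 521 FPKM in siControl+DFO libraries. The DFO libraries lay within a narrow band far above the controls, and the change was 1.04 on the log2 scale (SE 0.10, limma adjusted p = 2.34e-06).

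Ddit3 (chr10:127290774-127296288, plus strand) encodes CHOP, a C/EBP-family factor that ATF4 induces and that is linked to cell death after prolonged stress. Its levels were 40.5, 42.5 and 41.4 FPKM without and 360, 343 and 330 FPKM with DFO. The 3 control libraries nearly coincided, and the change was 3.05 (SE 0.11, limma adjusted p = 2.36e-09), an 8.29-fold rise.

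Atf3 (chr1:191170296-191218039, minus strand), a stress-induced factor of the same bZIP family, was listed at 0 in all siControl and siNCOA4 libraries. It reached 3.37, 1.43 and 2.58 FPKM in siControl+DFO and 0.483, 1.64 and 0.964 FPKM in siNCOA4+DFO libraries. It was thus detected in each of the 6 libraries that received DFO and in none of the 6 that did not. No fold and no test is given against groups listed at 0, since the DFO libraries alone brought it past the filter.

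Cebpb (chr2:167688915-167690418, plus strand) encodes a C/EBP partner of ATF4 that also acts in inflammation and metabolism. It rose from 47.4, 41.5 and 44.6 FPKM to 96.7, 114 and 104 FPKM, a change of 1.23 (SE 0.13, limma adjusted p = 5.65e-06). Cebpb overlaps Tmem189 on the opposite strand over 908 bases, and 16.7% of its 75-base windows also occur in Tmem189 transcripts. Tmem189 was at 17.0 to 19.1 FPKM in siControl and 14.9 to 17.5 FPKM in siControl+DFO.

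Nupr1 (chr7:126623249-126630861, minus strand), a small chromatin-associated stress protein that works with ATF4 and CHOP, rose from 33.3, 47.9 and 40.4 FPKM to 193, 184 and 180 FPKM. The change was 2.21 (SE 0.14, limma adjusted p = 9.28e-08). Its siControl libraries were spread more widely, relative to their mean, than those of Ddit3 or Asns.

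The feedback genes included the member with the largest change. Ppp1r15a (chr7:45522916-45526268, minus strand), the stress-induced eIF2α phosphatase subunit, went from 8.36, 6.66 and 6.51 FPKM to 330, 348 and 268 FPKM. That is 43.3-fold, or 5.44 on the log2 scale (SE 0.23, limma adjusted p = 4.78e-09), the 29th largest rise among the 11924 genes tested. In siControl its libraries overlapped those of Sesn2 and lay below those of every other member except Atf3, and in siControl+DFO they overlapped those of Ddit3 and lay below those of Atf4. Ppp1r15a overlaps Tulp2 on the opposite strand over 717 bases, where Tulp2 stayed between 0 and 1.20 FPKM.

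Trib3 (chr2:152337422-152344032, minus strand), the pseudokinase that restrains ATF4, rose less. Its levels were 12.9, 11.2 and 13.3 FPKM without and 32.1, 34.7 and 34.3 FPKM with DFO, a change of 1.43 (SE 0.13, limma adjusted p = 2.69e-06). The DFO libraries stood close together and well above the controls.

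Of the target genes, Chac1 (chr2:119351229-119354381, plus strand), which degrades glutathione, rose from 14.2, 13.7 and 13.5 FPKM to 52.0, 60.4 and 53.6 FPKM, a change of 1.99 (SE 0.13, limma adjusted p = 1.31e-07). Sesn2 (chr4:132492032-132510501, minus strand), a leucine-sensing restraint on mTORC1, rose from 6.64, 7.26 and 6.45 FPKM to 60.8, 71.6 and 68.0 FPKM, a change of 3.28 (SE 0.15, limma adjusted p = 8.62e-09). Asns (chr6:7675169-7693254, minus strand), which makes asparagine, moved from 90.4, 88.1 and 87.7 FPKM to 153, 146 and 148 FPKM. Its change of 0.75 (SE 0.07, limma adjusted p = 2.49e-06) was 1.68-fold, the smallest of the 9 and the reason that a single member fell below the 2-fold limit, although the libraries of its groups were widely separated. Sesn2 shares 6089 bases with the antisense-type gene Gm12981, annotated on the same strand, and whether the counting could split reads between them was not tested.

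Without DFO, Ncoa4 siRNA moved 2 of these genes past the test, 1 in each direction. Of the 9 members with values above 0 in these groups, Nupr1 was higher and Cebpb lower, that is 2 of 9, against 11.7% of all genes tested in either direction (4.52% higher and 7.21% lower), a share that ranged from 6.02 to 13.8% when 1 library was left out. None changed by more than 2-fold past the test, as did 1.78% of all genes, and 3 had an unadjusted p under 0.05, against 26.2%. Nupr1 was at 72.3, 74.2 and 83.6 FPKM in siNCOA4 against 33.3 to 47.9 FPKM in siControl libraries, 1.91-fold higher (log2 change 0.93, SE 0.14, limma adjusted p = 0.00116). Cebpb was at 34.8, 26.5 and 35.1 FPKM against 41.5 to 47.4 FPKM, a log2 change of -0.48 (SE 0.13, limma adjusted p = 0.0294). The groups did not overlap for either gene. The call for Cebpb was lost without siNCOA4 replicate 2 (adjusted p = 0.113), without siControl replicate 1 (0.0922) or without siControl replicate 3 (0.0682), all from limma.

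Sesn2 libraries did not overlap either, at 9.66, 7.63 and 9.05 FPKM in siNCOA4 and 6.45 to 7.26 FPKM in siControl, but its log2 change of 0.36 (SE 0.15) did not pass (limma adjusted p = 0.145), except when siNCOA4+DFO replicate 3 was left out of the fit (0.0365). Non-overlap upward was seen for 14.9% of all genes and downward for 17.6%. The other 6 members overlapped between the groups. Atf4 was at 230, 240 and 240 FPKM in siNCOA4 libraries (log2 change -0.11, 95% interval -0.32 to 0.10), Ddit3 at 43.2, 44.4 and 40.1 FPKM (0.04, -0.21 to 0.28) and Asns at 86.1, 92.2 and 90.7 FPKM (0.01, -0.14 to 0.16). A rise or fall of 2-fold lay outside each of these intervals. Ppp1r15a was at 5.60, 4.97 and 8.80 FPKM, Trib3 at 11.5, 14.0 and 9.99 FPKM and Chac1 at 11.1, 9.43 and 14.7 FPKM, each with siNCOA4 libraries on both sides of the siControl mean. Chac1 passed without siNCOA4 replicate 3, its highest library, at a log2 change of -0.43 (limma adjusted p = 0.022).

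**Figure D2:**
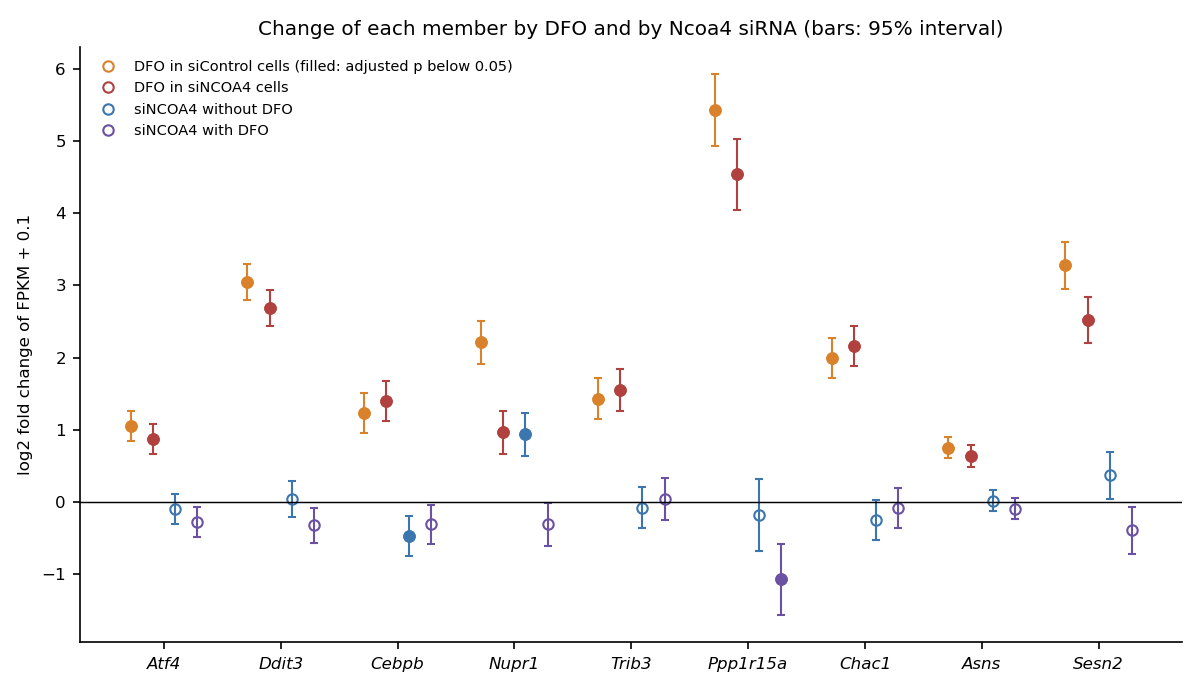
Log2 fold change of FPKM + 0.1 (vertical axis) for the 9 members with values above 0 in every group (horizontal axis), in 4 comparisons; bars are 95% intervals from limma and filled points passed an adjusted p below 0.05. Both DFO comparisons lie above 0 for all 9, whereas in the comparisons of siNCOA4 with siControl the filled points are Nupr1 and Cebpb without DFO and Ppp1r15a, at -1.08, with DFO.

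DFO also raised 9 of 9 members in siNCOA4 cells, Atf3 again left out, against 23.1% of all genes tested, with a median of 1.55. A change above 2-fold was reached by 6 of 9, against 7.59% of all genes. The members that passed without reaching it were Atf4 (0.87), Asns (0.64) and Nupr1 (0.96). Their siNCOA4+DFO libraries were at 486, 439 and 379 FPKM for Atf4, at 141, 150 and 128 FPKM for Asns and at 172, 156 and 123 FPKM for Nupr1. The same 9 were also higher in siNCOA4+DFO than in siControl, a comparison that shares its libraries with the others, against 25.4% of all genes.

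The DFO response itself differed between the siRNAs for 1 of the 9 members, Nupr1, against 2.1% of all genes tested (0.637 to 2.42% when 1 library was left out). DFO raised Nupr1 4.62-fold in siControl and 1.94-fold in siNCOA4 cells, and the difference between the log2 changes was -1.25 (SE 0.19, limma adjusted p = 0.00971). Nupr1 entered DFO treatment from a higher level in siNCOA4 cells, at a mean of 76.7 ± 6.1 FPKM against 40.5 ± 7.3 FPKM (SD, n = 3), and ended at 150 ± 25 against 186 ± 6 FPKM. The difference passed in each fit that left out 1 library, with adjusted p between 0.00695 and 0.0352.

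For 3 further members the difference was below 0 at an unadjusted p under 0.05 in limma but missed the adjusted threshold, which with Nupr1 makes 4 of 9 against 9.76% of all genes. Sesn2 rose 9.70-fold in siControl and 5.74-fold in siNCOA4 cells (difference -0.76, limma adjusted p = 0.0833). Ppp1r15a rose 43.3-fold and 23.3-fold (difference -0.90, limma adjusted p = 0.164), and Ddit3 rose 8.29-fold and 6.43-fold (difference -0.37, limma adjusted p = 0.25). Trib3, Chac1 and Cebpb differed in the other direction, by 0.12, 0.17 and 0.16 with limma adjusted p of 0.79, 0.68 and 0.683. The 95% intervals of these differences spanned 0, from -0.29 to 0.53 for Trib3, -0.23 to 0.56 for Chac1 and -0.22 to 0.55 for Cebpb. For Atf3 both groups without DFO are listed at 0, so its difference repeats that between the DFO groups.

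**Figure D3:**
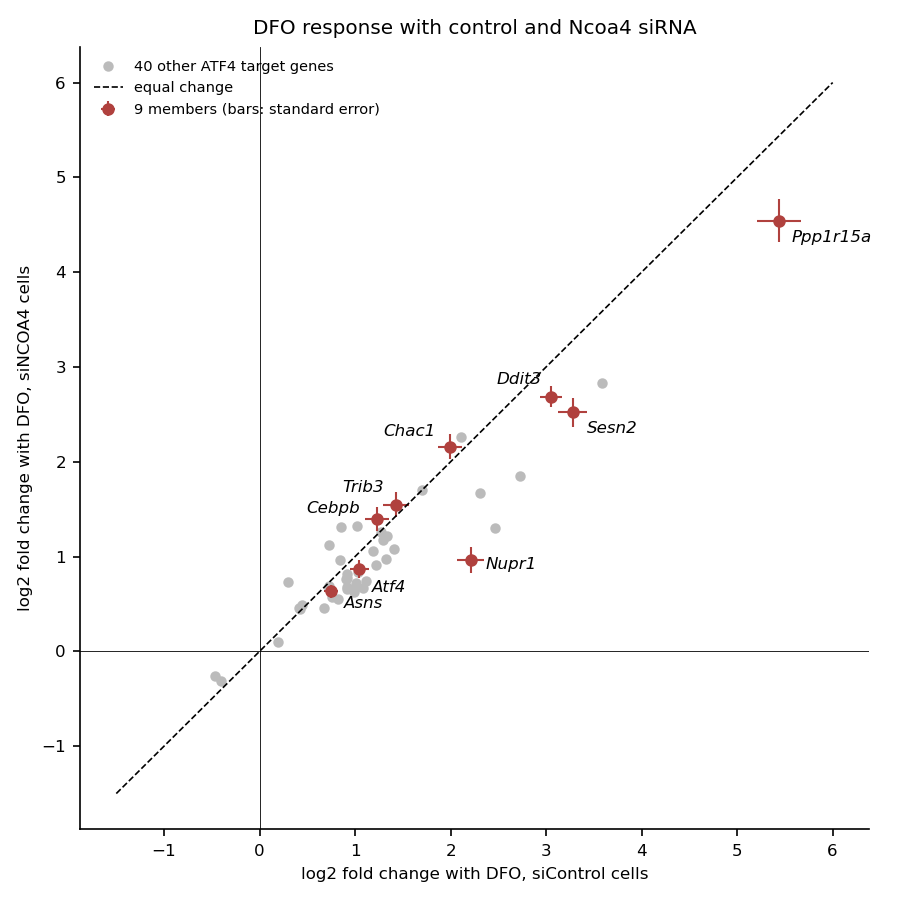
Log2 fold change with DFO in siControl cells (horizontal axis) against that in siNCOA4 cells (vertical axis), for 9 members with standard errors and 40 other ATF4 target genes. The target Gdf15, listed at 0 in all siNCOA4 libraries, is left out, and the dashed line marks equal change. Nupr1 lies farthest below the line among the members, at 2.21 and 0.96, and the axes share no libraries.

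Between the 2 DFO groups, Ppp1r15a was lower with Ncoa4 siRNA. It stood at 179, 172 and 105 FPKM in siNCOA4+DFO against 330, 348 and 268 FPKM in siControl+DFO libraries, and no library of either group reached the other. The log2 change was -1.08 (SE 0.23, limma adjusted p = 0.0078), and the siNCOA4+DFO mean was 48.2% of the siControl+DFO mean. It was the member that passed, 1 of 10, against 10.2% of all genes tested that were lower and 16.5% in either direction. The result passed in each fit that left out 1 library, with log2 changes from -1.22 to -0.84, the smallest without siNCOA4+DFO replicate 3.

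The libraries of the DFO groups did not overlap for 6 members, all lower with Ncoa4 siRNA, namely Atf4, Ddit3, Sesn2, Nupr1, Ppp1r15a and Cebpb, against 20.1% of all genes in that direction. At an unadjusted p under 0.05 in limma the same 6 were lower, of the 9 members other than Atf3, and none was higher, against 18.3% of all genes lower. Atf3 was lower by that rule as well, which would make 7 of 10. It is not counted here, because it met the filter on low values through its siControl+DFO libraries. Ddit3 was at 311, 303 and 219 FPKM against 330 to 360 FPKM (log2 change -0.33, limma adjusted p = 0.0664). Atf4 was at 379 to 486 FPKM against 521 to 532 FPKM (-0.28, limma adjusted p = 0.0617), and Sesn2 at 59.0, 56.8 and 38.6 FPKM against 60.8 to 71.6 FPKM (-0.40, limma adjusted p = 0.0891). These missed the threshold with all libraries, and leaving out siNCOA4+DFO replicate 1 brought Atf4 (0.0266) and Ddit3 (0.0331) under it, while leaving out siControl replicate 1 brought Atf4 (0.0427) under it.

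Trib3, Chac1 and Asns overlapped between the DFO groups. Trib3 was at 40.6, 32.6 and 30.9 FPKM in siNCOA4+DFO (log2 change 0.04, 95% interval -0.25 to 0.32), Chac1 at 52.5, 52.1 and 50.9 FPKM (-0.09, -0.37 to 0.19), and Asns spanned the siControl+DFO range (-0.10, -0.25 to 0.05). A halving of any of these would lie outside its interval. The Atf3 groups also overlapped, and Cebpb was at 92.1, 90.2 and 71.1 FPKM against 96.7 to 114 FPKM (-0.32, limma adjusted p = 0.105).

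The siNCOA4+DFO libraries differed from the siControl+DFO libraries in ways that move with this pattern. Replicate 3 gave the lowest value of its group for 9 of the 10 members, and it was also the shallowest library and the siNCOA4+DFO library with the most remaining Ncoa4, at 1.57 FPKM. The share of FPKM on protein-coding genes was lower in siNCOA4+DFO. Rescaling to that share moved the median of all genes from -0.01 to 0.13 and that of the 9 members from -0.32 to -0.18. Relative to all genes, the members' median stood at -0.31 in both cases. With quantile normalisation it stood at -0.15, from -0.13 for the 9 members and 0.01 for all genes, so its size depended on the normalisation. Of the 9 members, 8 were lower in the main fit and 6 with quantile normalisation or with protein-coding scaling. Ppp1r15a stayed lower under protein-coding scaling, at -0.94 (limma adjusted p = 0.0123). The part of library composition in the other differences was not tested.

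The wider pathway was described with lists of genes. Of 41 other ATF4 target genes tested, 38 rose with DFO in siControl cells and 1 fell, against 27.7% and 25.7% of all genes. The median log2 change was 0.99 against -0.01 over all genes. Among the 38 are Gdf15 and Fgf21, which would not have passed the filter on low values without their DFO libraries. Unlike Atf3 they were kept in these counts, so their rise is not independent of the filter. The 12 cytosolic aminoacyl-tRNA synthetases on that list, which charge tRNAs and were separated from it after their values were seen, all rose, by 0.43 to 1.19. Slc7a11, the cystine importer, went from 1.55, 1.35 and 1.20 FPKM to 16.8, 17.1 and 18.4 FPKM (log2 change 3.59, SE 0.13, limma adjusted p = 1.99e-09).

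Ddit4, an inhibitor of mTORC1, went from 20.4, 25.7 and 23.8 FPKM to 152, 163 and 147 FPKM (2.72, SE 0.12, limma adjusted p = 7.73e-09). The secreted stress factors Gdf15 and Fgf21 were near or at 0 without DFO and reached 3.95 to 7.28 FPKM and 0.694 to 2.30 FPKM with it, in siControl cells. The gene that fell was Psat1, an enzyme of serine synthesis, by 0.47 on the log2 scale (limma adjusted p = 5.98e-05); it is named because it was alone in its direction, after its value was seen.

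Ncoa4 siRNA alone moved 3 of these 41 genes up and 4 down, against 4.52% and 7.21% of all genes. Slc7a11 was at 3.22, 4.02 and 3.21 FPKM in siNCOA4 against 1.20 to 1.55 FPKM in siControl (log2 change 1.29, SE 0.13, limma adjusted p = 8.7e-05). Cth, the last enzyme of transsulfuration (0.59), and Gpt2, a mitochondrial alanine transaminase (0.58), rose too, and the glycine transporter Slc6a9 fell by 0.94. Without siNCOA4+DFO replicate 3 in the fit, 4 were up and 9 down. Between the DFO groups 2 were higher and 12 lower with Ncoa4 siRNA, against 6.22% and 10.2% of all genes, with a median of -0.19. The count of 14 became 8 without siControl+DFO replicate 2 and 9 without siControl+DFO replicate 1 or siNCOA4+DFO replicate 3. The 2 that were higher were Slc7a11 and Atf5, the second named after its value was seen, and Slc7a11 no longer passed without siControl+DFO replicate 1 or 2. The 12 that were lower included 5 of the 12 synthetases. The DFO response differed between the siRNAs for 2 of the 41, or 4.88% against 2.1% of all genes. These were Ddit4 (difference -0.87, SE 0.17, limma adjusted p = 0.0271) and Cth (-0.63, SE 0.13, limma adjusted p = 0.0354). Both log2 changes with DFO were smaller in siNCOA4 cells. Neither difference passed without the intensity trend, or when siControl replicate 1 or 3, siControl+DFO replicate 1 or 2 or any siNCOA4 library was left out. That of Cth passed in 1 of the 12 fits that left out a library. Between the DFO groups Cth did not differ past the test, at means of 53.5 FPKM in siNCOA4+DFO and 54.9 FPKM in siControl+DFO (log2 change -0.04, limma adjusted p = 0.821). Its smaller change with DFO thus went with its higher level in siNCOA4 cells without DFO (0.59). Ddit4 was lower in siNCOA4+DFO than in siControl+DFO (-0.51, limma adjusted p = 0.0153). Its rise with Ncoa4 siRNA alone did not pass (0.37, limma adjusted p = 0.0745).

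The upstream machinery changed in both directions, at about the rate of all genes. Of 26 genes for eIF2α kinases and initiation control tested, 6 rose and 6 fell with DFO in siControl cells, 46.2% against 53.4% of all genes, and the median was -0.09. Eif2ak3, which encodes PERK, the kinase of the endoplasmic reticulum, rose from 13.4, 11.5 and 11.9 FPKM to 27.7, 35.2 and 31.5 FPKM (log2 change 1.34, SE 0.11, limma adjusted p = 9.76e-07). Eif2ak1 (HRI, the haem-regulated kinase) fell by 0.36 (limma adjusted p = 0.00309), Eif2ak2 (PKR, the double-stranded RNA kinase) fell by 0.51 (limma adjusted p = 0.00083), and Eif2ak4 (GCN2, the amino acid sensor) was at a mean of 10.4 FPKM in both groups.

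Impact, a translational regulator that binds GCN1 and thereby limits GCN2, rose by 1.37 (SE 0.08, limma adjusted p = 7.1e-08), while Eif2b4, a subunit of the eIF2B exchange factor, fell by 1.42 and Oma1, a mitochondrial stress protease, fell by 0.90. Under DFO, Eif2ak2 was higher with Ncoa4 siRNA, at 26.5, 30.4 and 30.9 FPKM in siNCOA4+DFO against 17.4, 15.3 and 15.4 FPKM in siControl+DFO (log2 change 0.86, SE 0.10, limma adjusted p = 0.000289). It was higher without DFO as well, at 27.3, 29.8 and 31.1 FPKM in siNCOA4 against 22.4, 25.3 and 21.0 FPKM in siControl (0.36, SE 0.10, limma adjusted p = 0.0326). Its DFO response did not differ past the threshold (limma adjusted p = 0.0785). Eif2b2, another eIF2B subunit, was lower with Ncoa4 siRNA both without DFO (-1.20, SE 0.15, limma adjusted p = 0.000357) and with it (-0.998, SE 0.15, limma adjusted p = 0.00133). Ppp1cc, a catalytic subunit of the phosphatase that PPP1R15A recruits, was lower in the same comparisons, by -0.55 and -0.52 (limma adjusted p of 0.00203 and 0.0026). The other catalytic subunits are named with their values known. Ppp1cb passed in neither comparison (0.17 and -0.003), and Ppp1ca passed with DFO only (-0.30, limma adjusted p = 0.0155). Of the 26 genes, 1 was higher and 2 lower with Ncoa4 siRNA alone, 11.5% against 11.7% of all genes. Between the DFO groups 3 were higher and 5 lower, 30.8% against 16.5% of all genes.

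**Figure D4:**
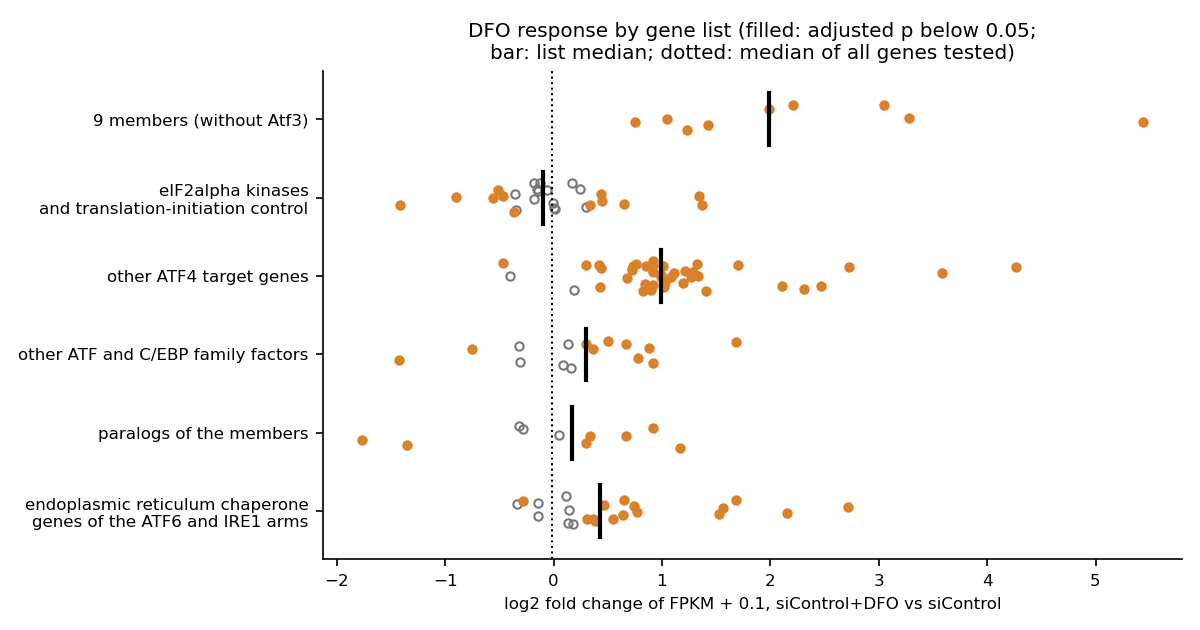
Log2 fold change with DFO in siControl cells (horizontal axis) for the 9 members other than Atf3 and for the tested genes of 5 lists (rows); each point is a gene, filled where it passed an adjusted p below 0.05, thick bars are list medians and the dotted line is the median of all genes tested. The members and the other ATF4 targets lie to the right, with medians of 1.99 and 0.99, whereas the kinase and initiation list straddles 0.

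Of 10 paralogs of the members tested, 5 rose and 2 fell with DFO in siControl cells, against 27.7% and 25.7% of all genes. Those that fell were Trib2, at 6.77, 6.30 and 5.92 FPKM before and 2.36, 1.36 and 1.78 FPKM after (log2 change -1.77, SE 0.20, limma adjusted p = 1.27e-05), and Sesn1, at 13.8 to 16.2 FPKM before and 5.07 to 6.86 FPKM after (-1.35, SE 0.15, limma adjusted p = 1.42e-05). Their relatives Trib3 and Sesn2 rose, as did Trib1 (1.17). Trib2 was also lower with Ncoa4 siRNA alone, by -0.73 (limma adjusted p = 0.0331), a call that was lost when any siControl or siNCOA4 library was left out. It was the 1 of 10 paralogs that passed there, 10% against 11.7% of all genes.

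A further list held other bZIP genes, namely ATF and C/EBP factors and relatives such as Nfe2l2, the antioxidant regulator. Of its 15 genes tested, 8 rose and 2 fell with DFO, against the same shares. They included Atf6 (1.69) and Nfe2l2 (0.88) upward and Creb3l2 (-1.42) downward. Atf5 and Cebpg, which rose, are also on the ATF4 target and paralog lists, and Jdp2, which rose too, is on the paralog list. Atf6 is counted again in the list of the ATF6 and IRE1 arms below, so the counts of these lists are not separate. The DFO response of Nfe2l2 was smaller in siNCOA4 cells (difference -0.51, SE 0.11, limma adjusted p = 0.0414), and that of Creb3l2 was less negative (0.92, SE 0.17, limma adjusted p = 0.0204). The call for Nfe2l2 was lost in each fit that left out 1 library except siNCOA4+DFO replicate 2, and that for Creb3l2 without siNCOA4 replicate 2 or 3 or siControl+DFO replicate 1. Without DFO, Creb3l2 was lower (-0.74) and Creb3l1 higher (0.94) with Ncoa4 siRNA, the latter no longer passing when any siControl or siNCOA4 library was left out. These were the 2 of 15 that passed there, 13.3% against 11.7% of all genes.

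Of 22 genes tested for the other arms of the unfolded protein response, led by ATF6 and IRE1, 14 rose and 1 fell with DFO, against the same shares, with a median of 0.43. Hspa5, the chaperone BiP, went from 372, 402 and 397 FPKM to 1662, 1878 and 1662 FPKM (log2 change 2.15, SE 0.11, limma adjusted p = 2.49e-08), and Dnajb9, a BiP co-chaperone, rose by 2.71. Hspa5 was at 1208, 1270 and 955 FPKM in siNCOA4+DFO, lower than in siControl+DFO (-0.61, SE 0.11, limma adjusted p = 0.00398). Pdia4, a disulfide isomerase, was lower with Ncoa4 siRNA without DFO, at 46.6, 55.2 and 46.7 FPKM against 103 to 116 FPKM (-1.17, SE 0.10, limma adjusted p = 3.87e-05), and Herpud1, a degradation factor, was lower by -0.56. These were the 2 of 22 that passed with Ncoa4 siRNA alone, 9.09% against 11.7% of all genes. Between the DFO groups 1 of the 22 was higher and 4 lower, 22.7% against 16.5% of all genes. Ern1, the IRE1 gene, rose by 1.56 with DFO.

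The members were also set beside each other and all genes tested by likeness. Likeness was measured as the root-mean-square difference between log2 values centred on each gene's mean over the 12 libraries, a description with no test over libraries that share 4 conditions. The values were not scaled, so the difference grows with the size of a change and does not separate size from shape. Ddit3 and Sesn2 formed the closest pair of members at 0.169, and both had Pvr as the nearest of all genes tested, at 0.132 and 0.138. The second for Ddit3 was Hmox1, haem oxygenase 1, at 0.154, and for Sesn2 Tbc1d2 at 0.158. Atf4 and Asns were 0.175 apart. The genes nearest to Atf4 were Nop14 (0.063) and Hspa9 (0.070), and those nearest to Asns were Iars, a tRNA synthetase, and Nsmaf (0.060 and 0.063).

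Trib3 was nearest to Impact (0.139) and Ptpn14 (0.153), Chac1 to Vegfa (0.141) and Bnip3 (0.184), both known hypoxia-responsive genes, and Cebpb to Pfkl (0.106) and Siah2 (0.113). Nupr1, with Gm12603 (0.196) and Ak1 (0.206), and Ppp1r15a, with the immediate-early type genes Ptgs2 (0.326) and Fosl1 (0.342), had no neighbour as near as those. Ppp1r15a also had the largest change of the 9 members with DFO, and the part of that size in its distances was not tested. Atf3 was nearest to Mab21l3 (0.467) and Hbegf (0.519), over values that include its 6 libraries listed at 0.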

How the data were processed

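RNA from HT22 cells was sequenced in 12 libraries, 3 in each of 4 groups set by the labels. The values are FPKM, computed by the authors per gene and deposited as 1 table per library. Per the submitters' processing notes the tools were Trimmomatic 0.33, FastQC, HISAT2 2.1.0, featureCounts and edgeR with mm10, and the study used edgeR for normalisation and differential expression. The program that gave FPKM, the annotation, the handling of reads with several matches and the use of strand in counting are not given in the sources used here. Counts were not used, and log2(FPKM + 0.1) was analysed in place of the study's count test.

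Of 24347 entries in each table, the 4 that share a name were left out. A gene was tested where 3 libraries or more had at least 0.5 FPKM, which left 11924. Models with a mean per group over all 12 libraries were fitted in limma 3.58.1 (R 4.3.3) with an intensity trend, 8 residual degrees of freedom and two-sided p-values, corrected for each comparison separately after Benjamini and Hochberg. Contrasts were DFO within each siRNA, siRNA within each DFO state, siNCOA4+DFO against siControl, and the difference between the DFO responses. Counts of members were planned over all 10, and Atf3 was taken out of those against groups without DFO once its values of 0 there were seen. The 10 genes, the 5 gene lists and the tests were chosen with earlier results of these data known. Genes outside the 10 are named where they were among the 4 in their list with the largest changes past the test with DFO or with Ncoa4 siRNA, for each eIF2α kinase, and as the 2 nearest profiles of a member. Hspa5, Ddit4 and others named by that rule are followed into further comparisons, which the rule did not set and which were shown with their values known. FPKM gives no read counts, so no counting intervals are given; relative depth differed by up to 1.52 times. Alternatives were 2 other pseudocounts (1 and 0.01), no filter and a filter at 2 FPKM, median-of-ratios scaling, quantile normalisation, the replicate block, fits on the compared groups only, no trend, robust moderation, a 2-fold limit and leaving out each library. Scaling to protein-coding genes was added after the data were seen. Promoters came from RefSeq (GRCm38.p6) and gene positions and overlaps from GENCODE M21 (GRCm38).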

Additional observations from a re-analysis of the deposited data

Results flagged for a closer look

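The DFO response of Nupr1 differed between the siRNAs by a test of the difference itself. The log2 change with DFO was 2.21 in siControl and 0.96 in siNCOA4 cells, a difference of -1.25 (SE 0.19, limma adjusted p = 0.00971). The groups hold 3 libraries each, so no library of a group was tested for standing apart from the others.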

How the results depend on the processing

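The counts of 9 of 9 members higher with DFO in siControl cells, in siNCOA4 cells and in siNCOA4+DFO against siControl, and of 1 member (Nupr1) whose DFO response differed, were the same under each alternative run, except that the 2-fold limit gave 8, 6 and 6. For siNCOA4 against siControl the count of 2 became 1 in the fit on the compared groups only and without the trend, and 0 with the 2-fold limit in limma (3 at an unadjusted p under 0.05), and it ranged from 1 to 3 when 1 library was left out. For siNCOA4+DFO against siControl+DFO the count of 1 became 2 with a pseudocount of 1, where Atf3 passed, and ranged from 1 to 3 when 1 library was left out. Atf3 had met the filter on low values through its siControl+DFO libraries. The direction turned only for values that did not pass the test. For siNCOA4 against siControl these were Atf4 (0.0103, quantile normalisation), Trib3 (-0.2099 to 0.0308 when 1 library was left out, above 0 without siNCOA4 replicate 3) and Asns (-0.0054 to 0.0432, below 0 without siNCOA4 replicate 2). For siNCOA4+DFO against siControl+DFO they were Trib3 (-0.0831 to 0.1132, below 0 without siNCOA4+DFO replicate 1), Chac1 (0.0367 and 0.045) and Asns (0.075 and 0.0391), each first under quantile normalisation and then scaled to protein-coding genes, and for the difference between the DFO responses Asns (0.0124, quantile normalisation). The cause was not tested.

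Over all genes, the share of calls that were higher in siNCOA4+DFO against siControl+DFO was 37.8%, and it was 50.6% after quantile normalisation and 69.5% after scaling to protein-coding genes. That scaling also moved the share from 38.5 to 55.8% for siNCOA4 against siControl and from 32 to 43.1% for the difference between DFO responses. The count of calls fell from 1963 to 1149 in the fit on the compared groups only, and for the difference from 250 to 165 with quantile normalisation and 164 without the trend. When 1 library was left out, the count ranged from 718 (without siNCOA4 replicate 2) to 1648 for siNCOA4 against siControl, where it was 1399, with 857 without siNCOA4 replicate 3 and 932 without siControl replicate 1. For siNCOA4+DFO against siControl+DFO the counts lay between 1204, when siControl+DFO replicate 2 was left out, and 2096, with 1299 without siNCOA4+DFO replicate 3. The lowest and highest counts for the difference were 76, when siControl+DFO replicate 1 was left out, and 288, and they lay between 92 and 147 without siNCOA4 replicate 1, 2 or 3, siControl replicate 2 or 3, siControl+DFO replicate 2 or siNCOA4+DFO replicate 2. Of the other ATF4 targets, the 14 calls between the DFO groups became 9, 8 and 9 with quantile normalisation, the compared groups only and protein-coding scaling.

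Replicate numbers did not pair the libraries: deviations of same-numbered libraries correlated at -0.127 to 0.116 over 18 pairs, and 2 of 12 libraries correlated best with their own number. With the replicate block the members' counts were 2, 9, 9, 9, 1 and 1, as without it. With 3 libraries a group and no read counts, low genes such as Atf3 limit what can be said.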
